A study of Mus musculus with 6 samples.

Results

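A set of 10 genes of lipoprotein structure, assembly and processing, out of 38828 gene features counted, was followed in Hepa1-6 cells after depletion of Crebl2. They were chosen by name: the apolipoprotein genes Apoa1, Apoa2, Apob, Apoe and Apom, the assembly factor Mttp, the lipase Lpl, the receptor Vldlr, and the plasma lipid-modifying proteins Pltp and Lcat. Hepa1-6 is an established mouse hepatoma line. A group of 3 libraries (labelled Luc) came from cells given siRNA to Renilla Luciferase, which has no mouse target, and 3 came from cells given siRNA to Crebl2, a basic leucine zipper protein. All cells were transfected with Lipofectamine RNAiMAX for 3 days in DMEM with 4.5 g/L glucose, 10% serum and Pen-Strep, and stranded total RNA libraries were made from each. The labels give no separate cultures for the replicates, so each p-value reflects the spread between these libraries, which may be technical.

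Libraries held between 27082572 and 29158489 counts. Crebl2 itself fell to 26.9% of control (log2 fold change -1.90, SE 0.0582, edgeR adjusted p = 2.83e-12), from 3041 to 3248 counts in control libraries to between 813 and 896 in Crebl2 siRNA libraries. Crebl2 siRNA replicate 2 stood apart in its mitochondrial share of counts, which was 0.859% against 2.09 to 2.52% in the other 5 libraries. The calls on the 3 members that changed were the same without it: log2 fold changes were then 0.80 for Lpl, 1.13 for Mttp and -0.36 for Vldlr.

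Liver cells secrete triglyceride in very-low-density lipoproteins, which are built around 1 molecule of apolipoprotein B that the microsomal triglyceride transfer protein loads with lipid in the endoplasmic reticulum. Apolipoproteins A-I and A-II form the protein shell of high-density lipoprotein (HDL), apolipoprotein E directs particles to receptors, and apolipoprotein M carries sphingosine-1-phosphate. In the circulation lipoprotein lipase hydrolyses the triglyceride, the phospholipid transfer protein and lecithin-cholesterol acyltransferase remodel HDL, and cell-surface receptors, the VLDL receptor among them, bind the particles. Lipoprotein lipase is a product of fat, muscle and macrophages and is made by fetal liver, whereas adult hepatocytes make little of it.

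The counts were deposited per transcript, so the bases that tell transcripts of 1 gene apart decide what was measured. Coding exons are shown because they separate the counted transcripts of the 2 members with more than 1 counted form that changed. Mttp has 2 annotated starts on the minus strand of chromosome 3, each with its own first coding exon (start codon in capitals). Mttp-201 begins its coding sequence at chr3:138131240-138131300 and Mttp-202 at chr3:138134000-138134105, farther upstream. In Vldlr, on the plus strand, Vldlr-207 holds the exon at chr19:27246593-27246676 that Vldlr-208 lacks, the exon known to encode the receptor's O-linked sugar domain. All are from GENCODE M21 (GRCm38), 5′ to 3′.
Mttp-201 first coding exon: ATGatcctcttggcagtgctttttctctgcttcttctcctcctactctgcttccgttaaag
Mttp-202 first coding exon: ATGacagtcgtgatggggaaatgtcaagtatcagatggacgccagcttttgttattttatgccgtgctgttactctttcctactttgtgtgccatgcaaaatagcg
Vldlr-207 cassette exon: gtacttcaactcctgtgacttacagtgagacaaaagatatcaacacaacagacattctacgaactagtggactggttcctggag

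Windows of 250 bases before the annotated start were searched on both strands in RefSeq (GRCm38.p6), in which 9 of the 10 members had an entry (Lpl did not). The letters searched included the cyclic AMP response element TGACGTCA, its half-site TGACG (contained in it), the E-box CACGTG, the nuclear receptor half-site AGGTCA, the GC box GGGCGG and the TATA box TATAAA. No member window held the full TGACGTCA, which 1.5% of 32851 windows of the same length held. The 1 Mttp window, which precedes the Mttp-202 start and not that of Mttp-201, held TGACG at -28. Of the 2 Apoa2 windows, 1 held it at -23, against 17.8% of windows. A GC box lay at -42 from 1 of the 2 Vldlr starts and at -37 in Pltp (32.7% of windows). TATAAA lay in windows of Apob (-60), Apoe (-100 and -96) and Apoa2 (-212), against 12.4% of windows. AGGTCA lay in an Apoa2 window (-238), against 14.0%, and no member window held CACGTG (6.0%). These matches describe letters and not binding.

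How much of each gene could be counted differed widely. Reads shared by several transcripts appear not to have been assigned, since only 0.0235% of counts fell on the 9603 rows lacking any unique base. Lpl (chromosome 8, 68880491 to 68907448, plus strand), Apoa1, Apob, Apom and Lcat each had 1 row, all of whose bases were unique. Apoa2 had 4 rows with 45 unique bases among them, Apoe 6 rows with 487 and Pltp 3 rows with 623. Apoe-201, Pltp-203, Vldlr-202 and a pair of the Apoa2 rows had no unique base, and each was listed at 0. Vldlr was counted almost wholly through Vldlr-207, which held 97.5% of its reads. Of that row's 4453 unique bases, 84 are the cassette exon and 4369 lie on the 3′ side of the coding sequence. Whether the counting used strand is not stated, so unique bases were taken over both strands.

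**Figure D1:**
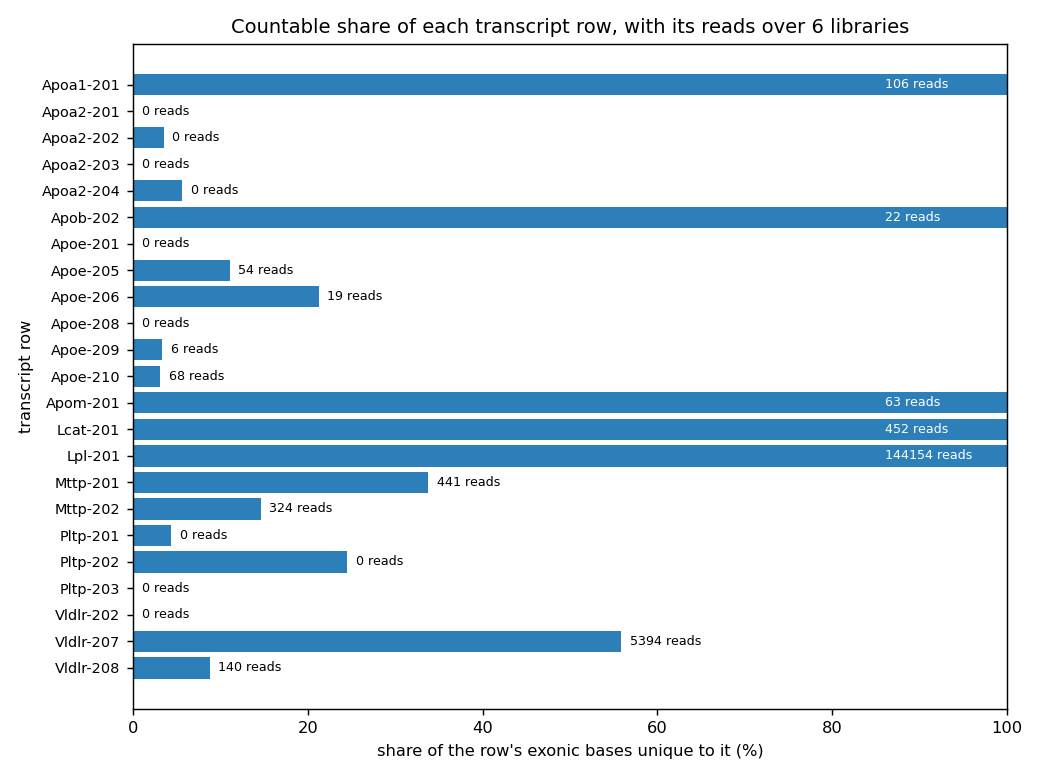
Share of each transcript row's exonic bases that no other deposited row covers (horizontal axis, %), for the 23 rows of the 10 genes, with the reads summed over 6 libraries printed beside each bar. The rows of Apoa2, Apoe and Pltp have short bars or none, and Lpl, with 144154 reads, is countable over its whole length.

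Of the 10 genes, 2 rose (Lpl and Mttp), 1 fell (Vldlr), 4 did not pass the test (Lcat, Apoa1, Apoe and Apom) and 3 had too few counts to test (Apob, Apoa2 and Pltp). Among all 11616 genes tested by edgeR at an adjusted p under 0.05, 38.9% were called, 18.8% raised and 20.1% lowered, so 3 calls among 7 tested members is close to the background share. The groups did not overlap for 3 of the 7, against 48.8% of all genes. The median log2 fold change of the 7 was -0.05, against 0.0052 over all genes. With library size alone as the scaling, 58.8% of all calls were upward in place of 48.3%, while the members kept the same 2 rises and 1 fall.

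**Figure D2:**
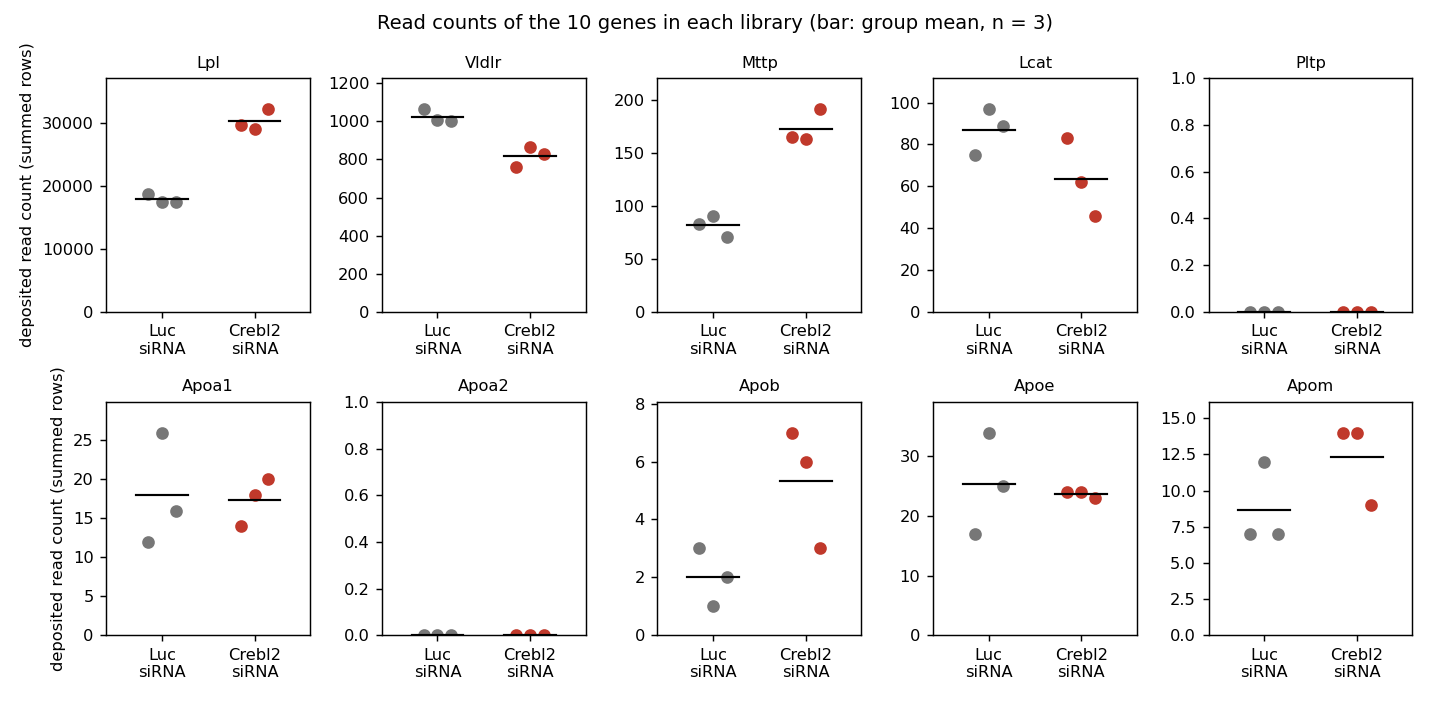
Deposited read counts of the 10 genes (vertical axis, summed over each gene's rows) in 3 Luc siRNA and 3 Crebl2 siRNA libraries, with the group mean as a bar and a separate scale per gene. Lpl and Mttp lie higher and Vldlr lower in every Crebl2 siRNA library, while Pltp and Apoa2 are at 0 throughout.

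Lpl, the secreted lipase that frees fatty acids from lipoprotein triglyceride, had the most counts of the members and rose about 1.7-fold. Apoe, Apoa2 and Pltp were countable over only 487, 45 and 623 bases, so counts do not rank their abundance against that of Lpl. Control libraries held 18736, 17380 and 17402 Lpl counts, and Crebl2 siRNA libraries 29566, 28905 and 32165. The groups were far apart relative to the spread within each. In CPM (library-scaled counts, with TMM factors), Lpl went from 641 ± 17.1 to 1087 ± 64.1 (SD, n = 3 each), which is 0.76 on the log2 scale (SE 0.0513, edgeR adjusted p = 9.77e-09). Its p was the 82nd smallest of all genes, although 488 genes had a larger log2 fold change. The exact two-sided permutation test over libraries gave p = 0.1, the smallest that 3 against 3 allows, as it did for Mttp and Vldlr.

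Scaled by countable length, Lpl stood far above the other members that had a level on this scale. CPM per kilobase of unique bases was taken over each gene's row with most counts, among rows with at least 500 unique bases. For Mttp that row, Mttp-201, held 57.6% of its reads. Apoe and Apoa2 had no such row and were not placed, and Pltp was at 0 over the 545 unique bases of Pltp-202. The level was 156 ± 4.16 for Lpl in control libraries (SD, n = 3) and 264 ± 15.6 after Crebl2 siRNA. This control level ranked 461st of 8602 tested protein-coding genes with at least 500 unique bases in the counted row, whose median was 15.6. On the same scale Vldlr stood at 8.09 ± 0.132, Lcat at 2.33 ± 0.331, Mttp at 1.25 ± 0.153, Apoa1 at 0.626 ± 0.251, Apom at 0.307 ± 0.102 and Apob at 0.00514 ± 0.00249 (SD, n = 3 each). Neighbours in this order did not overlap between libraries, apart from Apoa1 and Apom, where the lowest Apoa1 value (0.407) lay below the highest Apom value (0.425). Divided by all exonic bases, the control level would be 0.422 for Mttp and 4.52 for Vldlr, which would place Mttp below Apoa1.

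Lpl marks fat cells and macrophages in tissues, so their defining genes were read in the same libraries. All 5 adipocyte markers (Adipoq and Plin1 among them) were at 0 in every library, 1 of them with fewer than 200 unique bases. Among the 7 macrophage markers, Ptprc and Marco were at 0, and Adgre1 and Csf1r had at most 2 counts per library. Adgre1 had only 114 unique bases. The summed macrophage list was 36.2 to 37.6 CPM in control and 22.3 to 27.0 CPM in Crebl2 siRNA libraries, nearly all of it Cd14, which fell (log2 fold change -0.61, edgeR adjusted p = 6.08e-06). Cd68 differed by 0.12 on the log2 scale (edgeR adjusted p = 0.808). In bulk RNA such as this, fewer cells with a transcript and less transcript per cell cannot be told apart.

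Vldlr (chromosome 19, 27216484 to 27254231, plus strand), a receptor that captures triglyceride-rich particles alongside lipoprotein lipase, fell modestly. Vldlr counts were 1066, 1008 and 1002 in control libraries and 763, 867 and 828 after Crebl2 siRNA, with no overlap between groups. The level went from 36.8 ± 0.641 to 29.5 ± 1.99 CPM (SD, n = 3 each), 80.0% of control (log2 fold change -0.32, SE 0.0669, edgeR adjusted p = 0.00113). A fall at least this deep was common, with 1959 genes at a lower log2 fold change.

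The Vldlr-207 row fell. It is read mostly through the long 3′ end (4369 of 4453 unique bases), with 84 bases in the cassette exon printed above. It had 1043, 988 and 978 counts in control and 739, 845 and 801 in Crebl2 siRNA libraries (log2 fold change -0.33, SE 0.0683, edgeR adjusted p = 0.00085). Vldlr-208, recognised only by 337 bases on its 5′ side, had 23, 20 and 24 counts in control and 24, 22 and 27 after Crebl2 siRNA (log2 fold change 0.12, SE 0.256, edgeR adjusted p = 0.748). Vldlr-208 made up 2.16, 1.98 and 2.40% of the reads of these 2 rows in control libraries and 3.15, 2.54 and 3.26% after Crebl2 siRNA. These shares did not overlap between groups, and the exact two-sided permutation test gave p = 0.1, the smallest possible. Vldlr-202 could not be followed, and the 2 counted rows are read from opposite ends of the gene. The shares are not scaled for countable length, so they do not give the proportion of the forms with and without the cassette exon.

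Mttp (chromosome 3, 138089854 to 138144968, minus strand), the transfer protein that lipidates apolipoprotein B, had the largest change of the tested members and rose about 2.12-fold. Control libraries held 83, 91 and 71 Mttp counts and Crebl2 siRNA libraries 165, 163 and 192. Every Crebl2 siRNA library thus lay well above every control library. Mean CPM was 2.93 ± 0.321 in control and 6.23 ± 0.597 after Crebl2 siRNA (SD, n = 3 each), a rise of 1.09 on the log2 scale (SE 0.135, edgeR adjusted p = 8.67e-06). Summed counts were 245 in control and 520 after Crebl2 siRNA, a ratio of 2.13 when corrected for library size (95% exact binomial interval 1.82 to 2.48, covering counting error only). Among all genes, 197 had a larger log2 fold change.

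Both Mttp rows rose by similar amounts. Mttp-201, read through 61 coding bases and 1201 bases on its 3′ side, had 52, 49 and 39 counts in control and 89, 98 and 114 after Crebl2 siRNA (log2 fold change 1.10, SE 0.171, edgeR adjusted p = 6.29e-05). Mttp-202, read through its own first exons, had 31, 42 and 32 counts in control and 76, 65 and 78 after Crebl2 siRNA (log2 fold change 1.06, SE 0.194, edgeR adjusted p = 0.000318). Mttp-202 took 42.9 ± 4.8% of the reads of the 2 rows in control and 42.2 ± 3.37% after Crebl2 siRNA (SD, n = 3 each), and the exact two-sided permutation test of that share gave p = 0.9. Mttp-202 is annotated with 0 bases of 3′ UTR, so reads on the Mttp-201 3′ UTR count as Mttp-201 whichever start was used. The share is therefore of rows and not of starts. Over all transcript rows tested singly, 37.4% of 12542 were called.

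**Figure D3:**
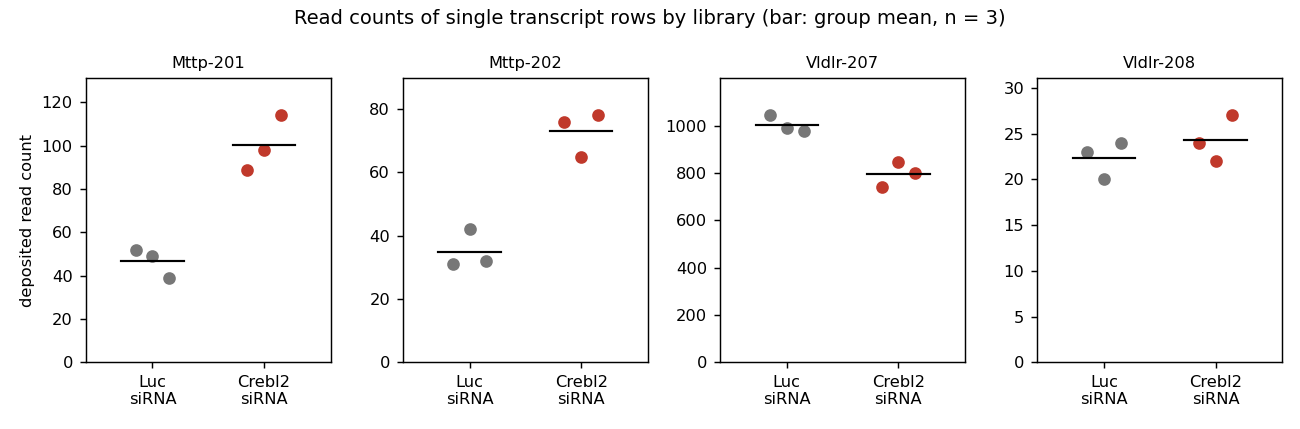
Deposited read counts (vertical axis) of the 2 counted Mttp rows and the 2 counted Vldlr rows in each library, with the group mean as a bar. Both Mttp rows lie higher in all Crebl2 siRNA libraries, Vldlr-207 lies lower in all of them, and the Vldlr-208 groups overlap between 22 and 24 counts.

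Lcat (chromosome 8, 105939551 to 105943382, minus strand), which esterifies cholesterol on HDL, was lower on average after Crebl2 siRNA but did not pass the test. Its counts were 75, 97 and 89 in control libraries and 83, 62 and 46 after Crebl2 siRNA. The groups overlapped, since the 83 of Crebl2 siRNA replicate 1 exceeded the 75 of control replicate 1. The level was 3.13 ± 0.444 CPM in control and 2.29 ± 0.658 CPM after Crebl2 siRNA (SD, n = 3 each; log2 fold change -0.45, SE 0.196, edgeR adjusted p = 0.0809). It was called lower without control replicate 1 (adjusted p = 0.0439), without Crebl2 siRNA replicate 1 (0.0108) and with no filter on low counts (0.0393), with adjusted p from 0.0108 to 0.293 over all alternatives and tools. Pltp (chromosome 2, 164839518 to 164857711, minus strand), which moves phospholipid between particles, was at 0 in all 6 libraries. That limits reads on its 623 unique bases to 3 counts, or 0.105 to 0.111 CPM per library, and says nothing of reads shared between its transcripts.

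The apolipoprotein genes gave few counts, and none of them passed the test. Apoa1, the main HDL protein (chromosome 9, 46228580 to 46230466, plus strand), had 12, 26 and 16 counts in control and 14, 18 and 20 after Crebl2 siRNA (log2 fold change -0.053, SE 0.331, edgeR adjusted p = 0.921). Apoe (chromosome 7, 19696109 to 19699188, minus strand) had 17, 34 and 25 counts in control and 24, 24 and 23 after Crebl2 siRNA (log2 fold change -0.097, SE 0.282, edgeR adjusted p = 0.821). For both, the Crebl2 siRNA values fell inside the control range. Of the Apoe reads, 46.3% fell on Apoe-210, a short form with 16 unique bases, and 36.7% on Apoe-205, both through bases outside the coding sequence, and Apoe-201 received none. Apom (chromosome 17, 35128997 to 35132050, minus strand) had 7, 12 and 7 counts in control and 14, 14 and 9 after Crebl2 siRNA (log2 fold change 0.50, SE 0.385, edgeR adjusted p = 0.326), with groups that overlapped.

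With the few reads that could be counted, moderate changes of the apolipoprotein genes could not be resolved. The ratio of summed counts, Crebl2 siRNA to control, was 0.964 for Apoa1 (95% exact binomial interval 0.646 to 1.44), 0.935 for Apoe (0.667 to 1.31) and 1.42 for Apom (0.840 to 2.45). Apob (chromosome 12, 7977648 to 8016835, plus strand), countable over all 13934 bases, had 3, 1 and 2 counts in control libraries and 7, 6 and 3 after Crebl2 siRNA. Those 6 and 16 summed counts gave a ratio of 2.67 (0.992 to 8.33), and the gene was left out by the filter. Apoa2 (chromosome 1, 171225054 to 171226379, plus strand) was at 0 in all libraries, where only 45 bases could have received a read.

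**Figure D4:**
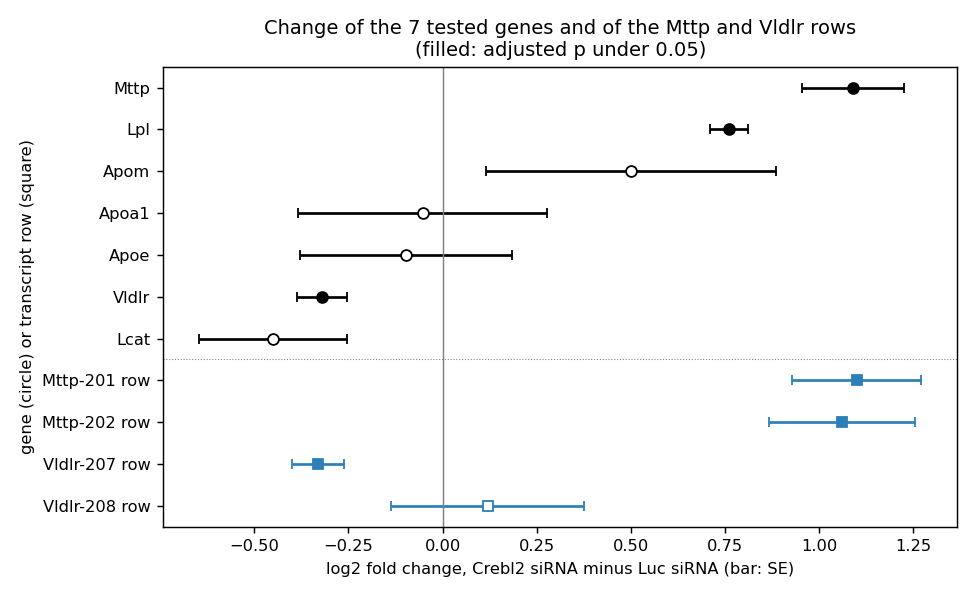
Log2 fold changes with their SE (horizontal axis, Crebl2 siRNA minus Luc siRNA) of the 7 tested genes (circles) and of single Mttp and Vldlr rows (squares), filled where the adjusted p was under 0.05. Mttp at 1.09 and Lpl at 0.76 lie to the right, Vldlr at -0.32 to the left, and the apolipoprotein genes have SEs of 0.282 to 0.385.

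Markers of the labelled cell type were mixed. Of 11 hepatocyte markers, albumin (Alb, 581 ± 29.2 CPM in control, SD, n = 3) and the fetal liver protein Afp (278 ± 1.21 CPM) were well counted, whereas Serpina1a and Serpina1b were at 0 and Ttr and Ahsg had at most 11 counts per library. Of 7 tested, 3 fell and 2 rose. The fibrinogen gene Fgb fell from 45.1 ± 2.43 to 17.0 ± 0.862 CPM (-1.41 on the log2 scale, edgeR adjusted p = 4.45e-10), the transferrin gene Trf by 0.42 and the retinol carrier Rbp4 by 0.38. Afp rose (0.36, edgeR adjusted p = 9.26e-06), as did Tat (0.82, edgeR adjusted p = 0.04), while Alb differed by -0.11 (edgeR adjusted p = 0.125). The summed hepatocyte list was 1065 to 1149 CPM in control and 1035 to 1113 CPM after Crebl2 siRNA. Endothelial markers summed to at most 0.432 CPM, with Kdr and Stab2 highest. Of 5 intestinal markers, both that were tested rose, Vil1 from 326 to 409 CPM and Fabp2 from 1.18 to 2.06 CPM. The others had too few counts to test. Cdx2 had 22 summed counts in control and 9 after Crebl2 siRNA, Alpi 33 and 17, and Apoa4 was at 0. Bile duct markers moved both ways, since Krt7 fell from 299 to 203 CPM while Krt19 rose by 0.30 and Sox9 by 0.16 on the log2 scale. So did fibroblast markers, with Dcn down from 171 to 117 CPM and Des up by 0.35. Of the 8 fibroblast and stellate markers, 1 more was tested and not called, and 5 were not tested. The part of all these markers in the members' changes was not tested. The 7-base word GAAATGT had been singled out in lowered genes by an earlier analysis of these libraries. It was in the annotated 3′ UTR of 0 of the 10 members and of 18.4% of 9858 tested genes. That share was not matched for length. Annotated 3′ UTRs held 21 bases for Lcat, 64 for Apoa1 and 188 for Pltp, against 2428 for Lpl and 5091 for Vldlr-207.

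Of 21 receptors and receptor regulators, 16 were tested, 8 fell and 3 rose, with a median log2 fold change of -0.09. Here and for the lists that follow, the shares over all genes were 20.1% lowered and 18.8% raised, and the median was 0.0052. Lrp5, a receptor also known for Wnt signalling, fell by 0.63 on the log2 scale (SE 0.0597, edgeR adjusted p = 4.71e-07), with 8793, 8699 and 8495 counts in control libraries and 6047, 5739 and 4998 after Crebl2 siRNA. Among those raised, Lrp1, a large endocytic receptor for remnants, went from 914 ± 115 to 1301 ± 301 CPM (0.51, edgeR adjusted p = 0.00202). Its rise was 0.31 without Crebl2 siRNA replicate 2, which held 45756 Lrp1 counts against 31197 and 31587, and DESeq2 did not call it (adjusted p = 0.0531). The sorting receptors Sorl1 (0.22, edgeR adjusted p = 0.00304) and Sort1 (0.41, edgeR adjusted p = 0.0393) also rose. The call on Sort1, which has 167 unique bases, was lost in 5 of 14 alternatives. These were DESeq2 (adjusted p = 0.088), the replicate block (0.0578), and leaving out control replicate 1 (0.115), control replicate 3 (0.107) or Crebl2 siRNA replicate 3 (0.155).

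Of 16 genes of HDL formation and remodelling, 11 were tested, 2 rose and 5 fell, with a median of -0.07. The transporter Abca1, which loads apolipoprotein A-I with lipid, rose from 309 ± 39.8 to 510.2 ± 38.2 CPM (log2 fold change 0.72, edgeR adjusted p = 1.35e-06), and Abcg1 from 11.2 ± 0.889 to 20.6 ± 2.12 CPM (0.87, edgeR adjusted p = 1.97e-06). Bmp1, which trims the apolipoprotein A-I precursor, fell by 0.47 on the log2 scale, the lysosomal sterol carrier Npc2 by 0.32 and the acyltransferase Soat2 by 1.43. Soat2 had 52 control and 19 Crebl2 siRNA counts in all and passed the filter only through the control libraries. Without Crebl2 siRNA replicate 2, 3 genes of this list were lowered.

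Assembly and lipase genes changed in both directions. Of 21 assembly and secretion genes 13 were tested, 4 fell and 2 rose, with a median of -0.08. The coat protein gene Sec23a fell from 22.6 ± 1.25 to 11.1 ± 1.12 CPM (log2 fold change -1.03, edgeR adjusted p = 1.63e-07), the cargo receptor Lman1 changed by -0.39 and Sec24d by -0.20, while the triglyceride-synthesising Dgat2 rose by 0.48 (edgeR adjusted p = 0.0025). The paralogue Sec23b rose by 0.16 (edgeR adjusted p = 0.0101) but was not called without control replicate 3 (adjusted p = 0.0703). Of 14 genes for lipases and their maturation and inhibition, 6 were tested, 2 fell and 1 rose, with a median of -0.26. Angptl4, which inhibits lipoprotein lipase, rose from 91.8 ± 6.00 to 112 ± 3.27 CPM (0.28, edgeR adjusted p = 0.000864). Endothelial lipase (Lipg, -0.63) and syndecan-1 (Sdc1, -0.44) were called lower, but 6 of 14 alternatives lost the call on Lipg and 3 of 14 that on Sdc1. Without control replicate 2 neither passed (adjusted p = 0.104 and 0.124). Gpihbp1 was at 0 over 1631 unique bases, and Lmf1 was listed at 0 with only 25.

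Other apolipoproteins and the editing of Apob mRNA were mostly below the filter. Of 15 other apolipoproteins, 3 were tested and 1 fell. This was clusterin (Clu, apolipoprotein J), at 4545 ± 401 CPM in control and 2268 ± 91.3 CPM after Crebl2 siRNA (log2 fold change -1.0, SE 0.060, edgeR adjusted p = 2.7e-09), and 7 of the 15 were listed at 0 throughout. Of those 7, Apoc1, Apoo and Saa2 had only 26, 55 and 46 unique bases. Of 5 Apob editing genes only Syncrip was tested (0.33, edgeR adjusted p = 0.0893), and the deaminase gene Apobec1 had 1 count in all over 82 unique bases. Of 26 transcription factors 20 were tested, 4 rose and 4 fell, with a median of -0.01. Cebpb (-0.46), Ppard (-0.41) and Srebf2 (-0.31) fell, and Nr5a2 (0.48) and Foxa1 (0.22) rose. Foxa1 was not called without control replicate 2 (adjusted p = 0.115) or Crebl2 siRNA replicate 2 (0.0577). Hnf4a, a main activator of apolipoprotein genes in liver, was listed at 0 with 6 unique bases.

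**Figure D5:**
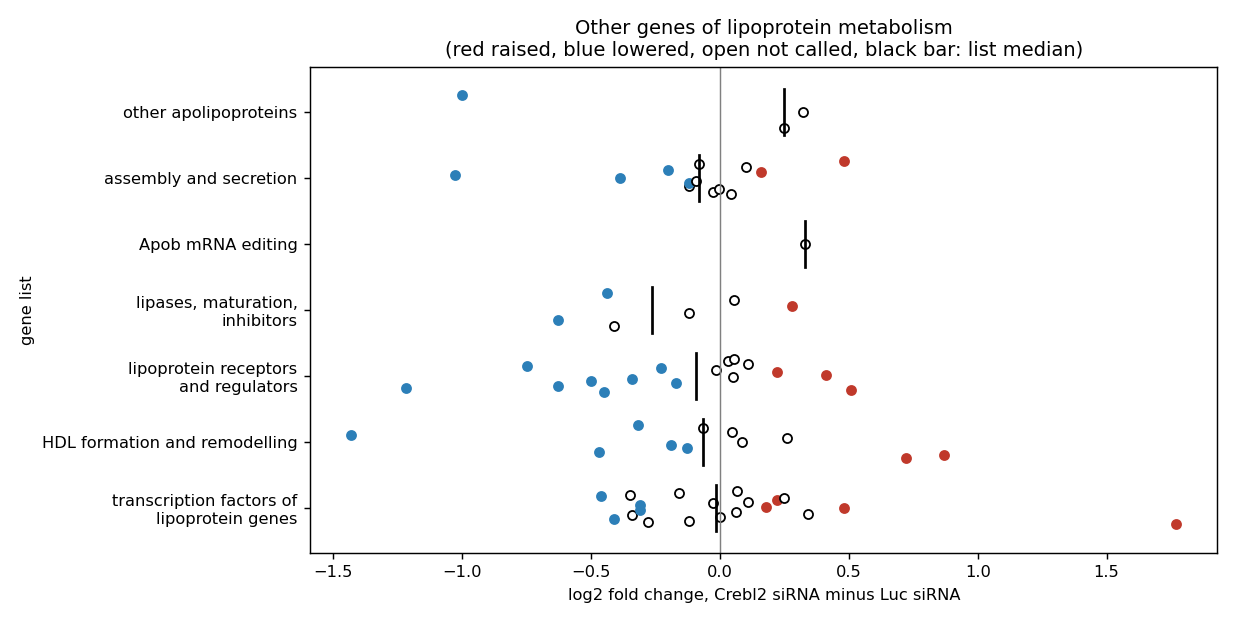
Log2 fold changes (horizontal axis, Crebl2 siRNA minus Luc siRNA) of the tested genes in 7 lists of lipoprotein metabolism, coloured by call, with each list's median as a black bar. The receptor list has 8 lowered and 3 raised genes, and list medians with at least 11 tested genes lie between -0.09 and -0.01.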

How the data were processed

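Per the labels, RNA was sequenced from 6 Hepa1-6 samples, 3 per siRNA, with a stranded total RNA kit. The deposited values are counts of reads for each of 58611 Ensembl transcripts, not normalised. Trim Galore, TopHat and HTSeq and the builds mm9 and GRCm38 are named in the submitters' processing notes, with settings not given in the sources used here. The members, gene lists and tests were chosen with earlier results of these data known.

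Identifiers were matched to GENCODE M21, 58264 of 58611 rows, and counts summed per gene. Unmatched rows (at most 0.0497% of a library) stayed as unnamed features. Genes were tested with edgeR 4.0.16 (R 4.3.3) by its two-sided quasi-likelihood test, with filterByExpr (minimum count 10), TMM factors, Benjamini-Hochberg adjustment over 11616 genes and a threshold of 0.05. Each SE is the fold change over the root of F, and the test was checked on simulated counts. Permutation tests used log2(CPM + 0.5), or row shares. Intervals and floors (3 counts) cover counting error only. Genes were named by rule: the 10 members, Crebl2, up to 3 called genes per list and direction, ordered by p (if a list had no call, its top gene), and the 2 most abundant genes of each marker list. Genes named beyond these (Ptprc, Marco, Adgre1, Csf1r, Serpina1a, Serpina1b, Ttr, Ahsg, Gpihbp1, Lmf1, Apobec1, Hnf4a, Fgb, Trf, Rbp4, Tat, Krt19, Apoc1, Apoo, Saa2, Cdx2, Alpi and Apoa4) were chosen after their values were seen. Alternatives were other scalings, DESeq2 1.42.0, limma-voom (limma 3.58.1), other filters, left-out libraries, a replicate block and single transcript rows. Replicate pairs differed by more than sampling noise (chi-square per gene 2.78 to 20.8).
The search for the 3′ UTR word and the shares of single rows were added after seeing the data. Some genes that the rule names are not reported here.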

Additional observations from a re-analysis of the deposited data

How the results depend on the processing

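Under 15 alternative settings, Lpl and Mttp were the 2 members raised in each, with log2 fold changes of 0.713 to 0.811 and 1.005 to 1.168. Vldlr was lowered at gene level in all, and its single row Vldlr-208 had the opposite sign (0.123, not called). Lcat was called lower with no filter (-0.455), giving 2 lowered members, and leaving out 1 library moved Lcat between -0.681 and -0.264 and the members lowered between 1 and 2. With library size as the scaling, 2 other apolipoproteins were raised and 1 gene of the lipase list was lowered. With DESeq2, 1 lipase list gene was lowered and 1 receptor list gene raised. Leaving out 1 library gave 0 to 1 other apolipoproteins raised, 1 to 2 assembly genes raised, 0 to 2 lipase list genes lowered, 3 to 5 HDL genes lowered and 2 to 4 transcription factors raised. Over all genes, 1694 to 2741 were raised and 1920 to 2408 lowered, and 2424 single transcript rows were lowered. Same-numbered control and Crebl2 siRNA libraries did not deviate together (correlations -0.17, -0.061 and -0.11). The labels do not say what a number marks, and the main test did not pair the libraries. With a replicate block 1882 genes rose and 2101 fell, and the members' 2 rises and 1 fall were called as before. Low counts limit what can be said of the apolipoprotein genes.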
